A study of Mus musculus with 9 samples.

Results

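Adamdec1 and Adam28 are metalloprotease genes that lie next to each other on mouse chromosome 14, and their transcript levels were followed across the layers of the newborn mouse bladder. Every probe set that the platform annotation gives to either gene was taken, which made 3 of 45101 probe sets and 2 of the 18193 genes with a probe set of their own. The pair was chosen on its measured values, because Adamdec1 was low in detrusor and high in both stroma and urothelium, so the layer values of Adamdec1 are a description and carry no test. Adam28 was included for its position.

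The arrays held total RNA from laser-captured bladder layers: the detrusor, which is the smooth muscle coat, the stroma, which is the connective tissue under the lining, and the urothelium, the lining epithelium itself. All groups came from FVB/N mice carrying the SMGA/EGFP transgene, a green fluorescent reporter for smooth muscle gamma actin, and no group without the transgene was compared. Each layer had 3 unpooled samples, 1 array each, with postnatal days 1 and 2 both present in every layer (days 1, 1 and 2 in detrusor 1 to 3, days 1, 2 and 2 in stroma 1 to 3, and days 2, 1 and 2 in urothelium 1 to 3). Replicate numbers only name the arrays.

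ADAM proteins are metalloproteases with a disintegrin domain, and many of them cut the outer part of membrane proteins. ADAM28 is made in membrane-bound and secreted forms, was described in lymphocytes and epididymis, and is reported to cut IGFBP3, CTGF and von Willebrand factor and to bind integrins through its disintegrin domain. ADAMDEC1, also called decysin, is a short secreted relative that lacks most of the disintegrin part. It is known from dendritic cells and macrophages and from fibroblasts of the intestinal lamina propria.

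The marker genes matched the layer labels for most arrays, with exceptions that bear on both genes. The 7 smooth muscle markers had median log2 levels of 15.7 to 16.2 in detrusor, and also 15.3 in urothelium 3, against 9.75 and 8.51 in urothelium 1 and 2. Stroma lay between, with medians of 11.9, 10.8 and 13.3 in stroma 1, 2 and 3. The 9 urothelial markers, among them the uroplakins and Epcam, had medians of 13.5 to 15.1 in urothelium and 8.10 to 8.38 in detrusor. In stroma the urothelial median was 12.4 in stroma 1, 10.3 in stroma 2 and 13.5 in stroma 3, so stroma 3 reached the urothelial range. Log2 levels here are log2 of the deposited intensity plus a pseudocount of 39.31, and a gene was called when its adjusted p in limma's test, Benjamini-Hochberg over 13064 genes, was under 0.05. In these bulk samples, fewer cells of a type and less RNA per cell cannot be told apart.

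Adamdec1 was bright in stroma and urothelium and dim in detrusor. Its 1 probe set, 1419476_at, had intensities of 693.3, 138.6 and 854.4 in detrusor 1, 2 and 3. The stroma arrays gave 81023, 14508 and 47961, and the urothelium arrays gave 25313, 31719 and 34287. Every stroma and urothelium array thus stood far above every detrusor array, while stroma and urothelium overlapped, with stroma 1 the brightest array and stroma 2 below all the urothelium arrays. The detrusor signal was not at the bottom of the scale, since detrusor 1 and 3 lay above their array's median probe set (213.4 and 191.7), whereas detrusor 2 lay under its own (206.8).

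On the log2 scale the Adamdec1 level was 8.93 ± 1.27 in detrusor, 15.23 ± 1.27 in stroma and 14.88 ± 0.23 in urothelium (SD, n = 3 each). The difference of detrusor from stroma was -6.30 ± 0.67 (SE), or 78.6-fold on this scale, and that of urothelium from detrusor was 5.95 ± 0.67, or 61.9-fold. In the order of levels, stroma and urothelium were neighbours that did not differ beyond their spread, with a difference of -0.34 ± 0.67 that turned to 0.08 when arrays were centred on their medians and to 0.19 without stroma 1. The spread between arrays was wide in detrusor and stroma and narrow in urothelium, where the levels ran from 14.63 to 15.07.

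Refits of these layer values describe the detrusor gap and are no support for it, since Adamdec1 was chosen on them. Leaving out 1 array at a time gave -7.00 to -5.57 for detrusor from stroma and 5.22 to 6.39 for urothelium from detrusor. Without stroma 3 and urothelium 3 together the values were -6.14 ± 0.82 and 5.86 ± 0.82.

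**Figure D1:**
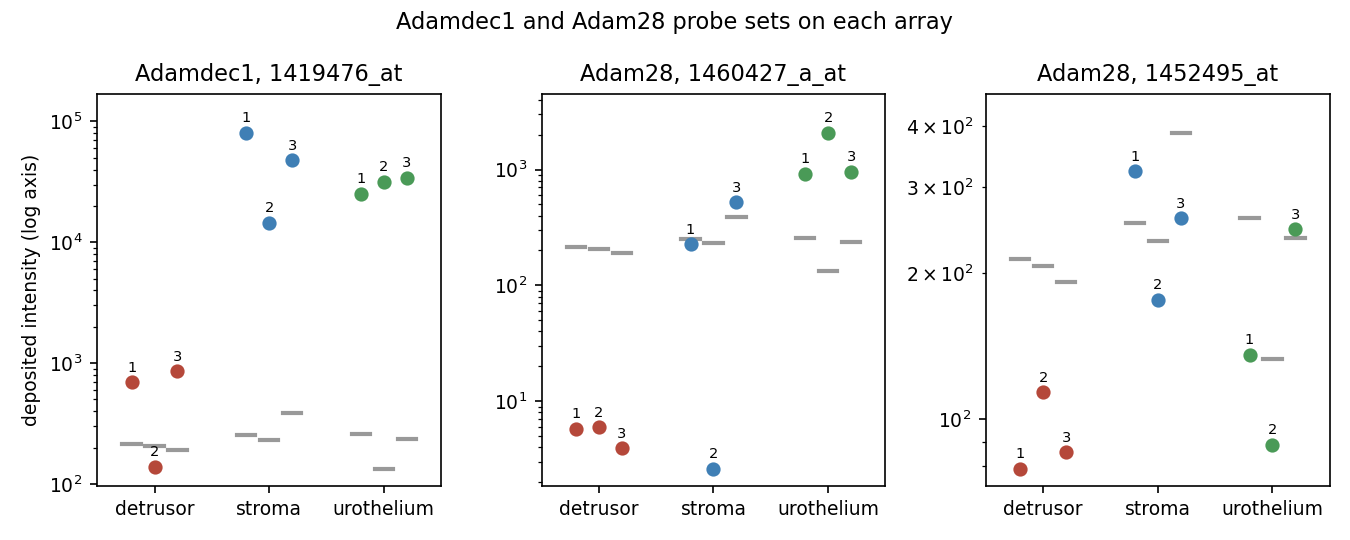
Deposited intensity on a log axis for the probe set of Adamdec1 and both probe sets of Adam28, with 1 point per array coloured by layer, the replicate number above it and a grey bar at that array's median probe set. Adamdec1 is between 138.6 and 854.4 in detrusor and at least 14508 elsewhere, while Adam28 by 1460427_a_at is highest in urothelium and stroma 2 lies with the detrusor arrays.

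Adam28 was highest in urothelium. Its probe set 1460427_a_at had intensities of 916.9, 2086 and 958.98 in urothelium 1, 2 and 3, and 5.81, 5.94 and 3.93 in the detrusor arrays. Stroma was split, with 227.8 in stroma 1, 2.61 in stroma 2 and 522.3 in stroma 3. All urothelium arrays stood above all stroma and detrusor arrays, and stroma 2 lay with the detrusor arrays. The detrusor and stroma 2 intensities are under the pseudocount, at the bottom of the scale, so no order among them can be read.

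The Adam28 log2 level was 10.31 ± 0.65 in urothelium, 7.53 ± 1.93 in stroma and 5.48 ± 0.04 in detrusor (SD, n = 3 each). Urothelium was higher than detrusor by 4.83 ± 0.83 (SE), or 28.4-fold, and limma called the difference (adjusted p = 0.00354). In that comparison 16.4% of all genes tested were called, 8.37% as higher in urothelium, so a call there was common. Adam28 passed the filter on dim probe sets mainly through its urothelium arrays, so the same comparison was made with no filter, and adjusted p was 0.00406. Without 1 array at a time the difference was 4.46 to 5.03 and adjusted p from 0.00028 to 0.0192. Its size rests on the pseudocount, at 6.53 with one of 8.13 and 2.63 with one of 232.9.

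Stroma was not told apart from either neighbour for Adam28 with all arrays. Detrusor against stroma gave -2.05 ± 0.83 (limma adjusted p = 0.174), in a comparison where 5.84% of genes were called (3.12% higher and 2.72% lower in detrusor), and urothelium against stroma gave 2.78 ± 0.83 (adjusted p = 0.110), where 0.230% were (0.0612% higher and 0.168% lower in urothelium). A single stroma array decided each. Without stroma 2 the detrusor difference was -3.12 ± 0.57 (adjusted p = 0.0136), and without stroma 3 the urothelium difference was 3.58 ± 0.79 (adjusted p = 0.0373). Without stroma 3 and urothelium 3 together, the values were -1.25 ± 0.84 (adjusted p = 0.444) and 3.75 ± 0.92 (adjusted p = 0.0604), and urothelium against detrusor was still called (5.001 ± 0.836, adjusted p = 0.00441).

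The other probe set of Adam28, 1452495_at, was dim throughout and had another pattern. It read 79.1, 113.8 and 85.48 in detrusor, 323.9, 176.2 and 259.3 in stroma, and 135.6, 88.6 and 246.1 in urothelium. The stroma arrays stood above the detrusor arrays, and urothelium overlapped both. It reached its array's median in stroma 1 and urothelium 3 only and so failed the filter. In a fit of all 34945 probe sets with 1 symbol and no filter, none of its layer differences was called. They were -1.12 ± 0.51 for detrusor against stroma (adjusted p = 0.304), -0.62 ± 0.51 for urothelium against stroma (adjusted p = 0.621) and 0.50 ± 0.51 for urothelium against detrusor (adjusted p = 0.708). The urothelium and stroma difference thus had opposite signs in the 2 probe sets, and the urothelial level of Adam28 rests on 1460427_a_at alone.

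Within stroma both genes were lowest in stroma 2, but they differed in how low they fell there and in which array was highest. Stroma 2, the stroma array with the lowest urothelial markers, had Adam28 at 5.39, at the bottom of the scale with the detrusor arrays, and Adamdec1 at 13.83, against 9.80 in the highest detrusor array. Adam28 took the stroma arrays in the order of the urothelial marker median, lowest in stroma 2 and highest in stroma 3 (9.13). Smooth muscle medians had that order too, at 11.9, 10.8 and 13.3 in stroma 1, 2 and 3. So had the endothelial medians, at 10.6, 9.77 and 10.9, while the macrophage, fibroblast and lymphocyte medians were highest in stroma 1. Adamdec1 was highest in stroma 1 (16.31) and not in stroma 3 (15.55). The summed intensity of the 9 urothelial markers was 52652, 17660 and 211652 in stroma 1, 2 and 3, against 223157 to 302304 in urothelium and 5044 to 7070 in detrusor. The part of urothelial transcripts in the stroma levels of either gene was not tested.

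Other cell type markers moved with Adamdec1 in some layers and not in others. The 10 macrophage markers had their highest median in stroma 1 (11.3), followed by stroma 3 (9.89) and stroma 2 (8.89), the order of Adamdec1 in stroma. Macrophage markers were not alone in this. Fibroblast medians took the same order, at 15.4, 15.0 and 14.8 in stroma 1, 3 and 2. So did the lymphocyte medians, at 7.88, 7.80 and 6.44, whereas the urothelial, smooth muscle and endothelial medians were highest in stroma 3. In urothelium, where Adamdec1 was between 14.63 and 15.07, the macrophage medians were 7.74 to 8.67, beside detrusor values of 8.41 to 9.58. Among the 10, Ptprc went the other way, at 10.17 and 10.77 in urothelium 1 and 3 and 7.19 in urothelium 2. Its levels were 6.28 to 8.87 in detrusor and 6.25 to 8.36 in stroma. The summed intensity of the macrophage markers was 5777 to 8635 in urothelium, 7295 to 16697 in detrusor and 9923 to 68072 in stroma. The 10 fibroblast markers, led by collagens, had medians of 14.2 to 14.9 in detrusor, 14.8 to 15.4 in stroma and 12.3 to 13.4 in urothelium. Fibroblast sums were 285751 to 362466 in detrusor, 399837 to 593964 in stroma and 125971 to 257755 in urothelium. The part of any of these cell types in the stroma levels was not tested.

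Lymphocyte markers, of interest for Adam28, were low on all arrays. Of the 7 on the array, 0 to 2 were at or above an array's median probe set, and the T cell genes Cd3d, Cd3e and Cd2 reached it on none of the 9 arrays. Their summed intensity was 271.3 to 763.4 in urothelium, where Adam28 was highest, 297.5 to 705.6 in detrusor and 953.2 to 1336 in stroma. The 6 endothelial markers had sums of 1902 to 6359 in urothelium, 4071 to 10839 in detrusor and 8493 to 18287 in stroma.

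**Figure D2:**
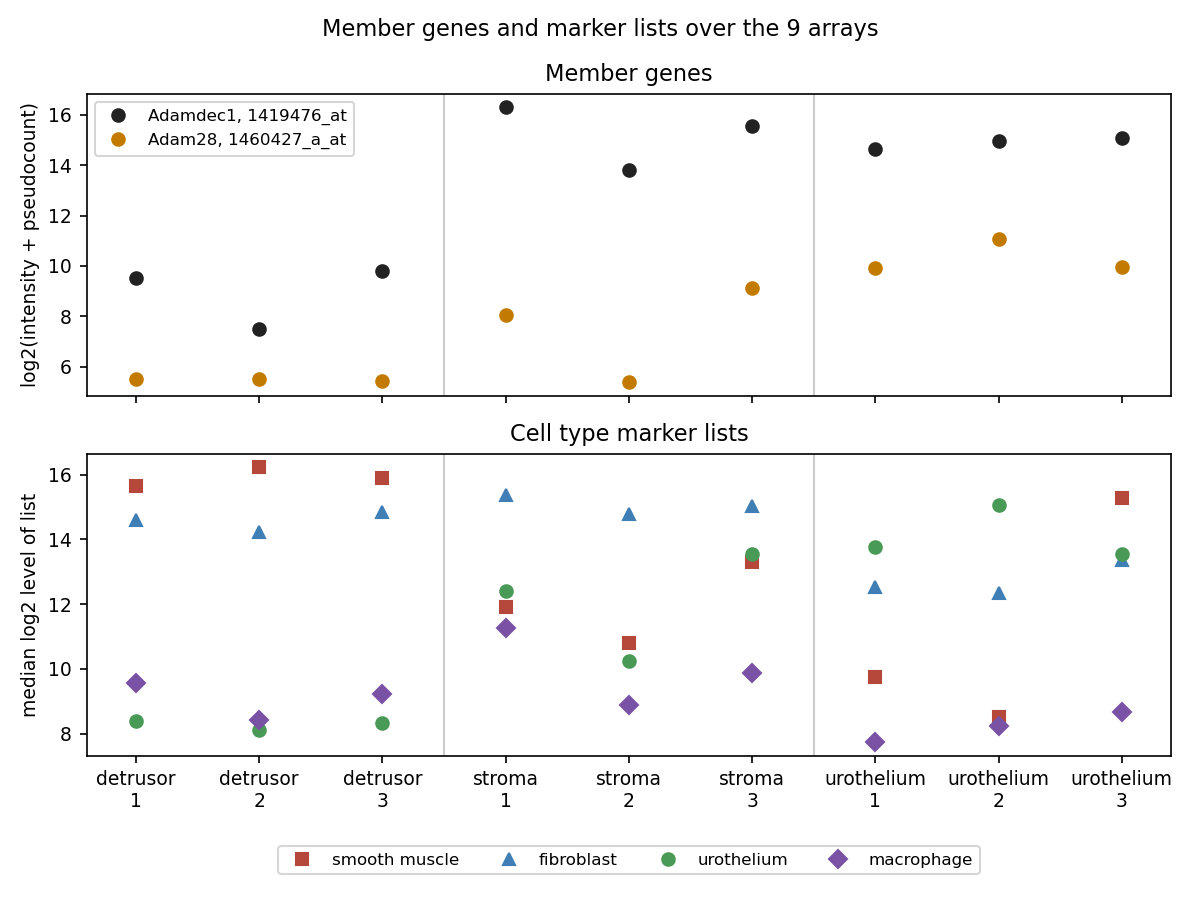
Log2 levels of Adamdec1 and of Adam28 by 1460427_a_at on each of the 9 arrays (top) and the median log2 level of 4 marker lists on the same arrays (bottom), for reading each series across arrays and not against another. In stroma 2, Adam28 (5.39) is with detrusor and Adamdec1 (13.83) is not, and the urothelial median there (10.3) is the lowest of the stroma arrays.

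Neither gene differed by postnatal day beyond the spread of the arrays. With layer in the limma fit, day 2 against day 1 was -0.14 ± 0.60 for Adamdec1 (adjusted p = 0.985) and -0.66 ± 0.73 for Adam28 (adjusted p = 0.932), in a test that called 0.0153% of all genes (0.00765% higher and 0.00765% lower on day 2). Within day 1, Adamdec1 stood at 8.50 in detrusor (2 arrays), 16.31 in stroma and 14.95 in urothelium (1 array each). Within day 2 it stood at 9.80 in detrusor (1 array), 14.69 in stroma and 14.85 in urothelium (2 arrays each). The low detrusor level was thus seen on both days. The order of stroma and urothelium was not the same on both, but on day 1 it rests on 1 array each. On day 2 the stroma arrays (13.83 and 15.55) lay on either side of the urothelium arrays (14.63 and 15.07). Adam28 by 1460427_a_at had means in the order detrusor, stroma, urothelium on both days. They were 5.50, 8.06 and 11.05 on day 1, and 5.43, 7.26 and 9.93 on day 2. On day 1 this too rests on 1 array each for stroma and urothelium. The day 2 stroma mean joins stroma 2 (5.39), which lay with the detrusor array, and stroma 3 (9.13). A limma fit of layer by day was also run. With 1 array for some layers on each day it cannot decide whether the layer pattern changed, so its p-values are left out.

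The other ADAM genes gave few calls between layers. Of 33 listed family members 27 were on the array and 13 passed the filter, the other 14 being dim probe sets such as Adam7, the epididymal relative beside Adamdec1. None of the 13 was called lower in detrusor than in stroma, where 2.72% of all genes were, and 1 had an unadjusted limma p under 0.05 (13.1% of all genes). Likewise 0 of 13 had a call for a higher urothelial than detrusor level, where 8.37% of all genes were, and 1 had an unadjusted p under 0.05 (14.6% of all genes). With so few genes, counts of 0 are near these shares and say little about the family. In the opposite directions, 1 was called higher in detrusor than in stroma, beside 3.12% of all genes, and 3 were called lower in urothelium than in detrusor, beside 8.05%. The family's median difference was -0.12 for detrusor against stroma, -0.23 for urothelium against stroma and -0.26 for urothelium against detrusor, beside -0.16, -0.12 and -0.01 over all genes.

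Adam9, Adam12 and Adam33 were the family members called. Adam9, a widely expressed sheddase, had log2 levels of 13.9 to 14.7 in detrusor, 12.8 to 13.1 in stroma and 12.7 to 13.7 in urothelium, with no overlap between detrusor and the others. It was higher in detrusor than in stroma by 1.32 ± 0.33 (limma adjusted p = 0.0424) and lower in urothelium than in detrusor by 1.27 (difference -1.27 ± 0.33, adjusted p = 0.0243). The stroma call was lost, at 1.13 to 1.501 and adjusted p up to 0.181, without any 1 of the detrusor or stroma arrays or urothelium 1, without stroma 3 and urothelium 3, and with array weights, every probe set, no filter or quantile normalization. The urothelium call was lost without detrusor 2 or 3 or urothelium 1 or 2 (-1.28, -1.08, -1.09 and -1.11), with adjusted p up to 0.112, and with median centring (-1.26, adjusted p = 0.0707).

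Adam12, which is linked to mesenchyme and muscle formation, had levels of 10.99 to 11.55 in detrusor, 10.98 to 11.74 in stroma and 8.64 to 10.1 in urothelium. It was lower in urothelium than in detrusor (-1.69 ± 0.43, adjusted p = 0.0226), a limma call lost without detrusor 1 (-1.70), detrusor 3 (-1.55) or urothelium 2 (-1.23), with adjusted p of 0.0651 to 0.0957. Adam33, known from smooth muscle and fibroblasts of the airway, had levels of 9.16 to 10.5 in detrusor, 7.29 to 8.76 in stroma and 6.57 to 8.50 in urothelium. It was lower in urothelium than in detrusor (-2.86 ± 0.68, adjusted p = 0.0158), a call lost without detrusor 1, detrusor 3, urothelium 1 or urothelium 2 (-2.64, -2.62, -2.54 and -2.54, adjusted p up to 0.0746). No family member was called between urothelium and stroma, where 0.230% of all genes were. In that comparison 3 of the 13 had an unadjusted p under 0.05, all lower in urothelium, beside 10.7% of all genes. Adam10 and Adam17, the main sheddases of Notch receptors and of TNF, gave 0.47 ± 0.29 and 0.98 ± 0.34 for urothelium against detrusor, neither called (adjusted p = 0.316 and 0.0735). Adam17 had the signs of the pair in both detrusor comparisons, with -0.73 ± 0.34 for detrusor against stroma (adjusted p = 0.224). So had Adam11 (-0.84 and 0.61), Adam8 (-0.29 and 0.06) and Adam1b (-0.18 and 0.02), none of them called.

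**Figure D3:**
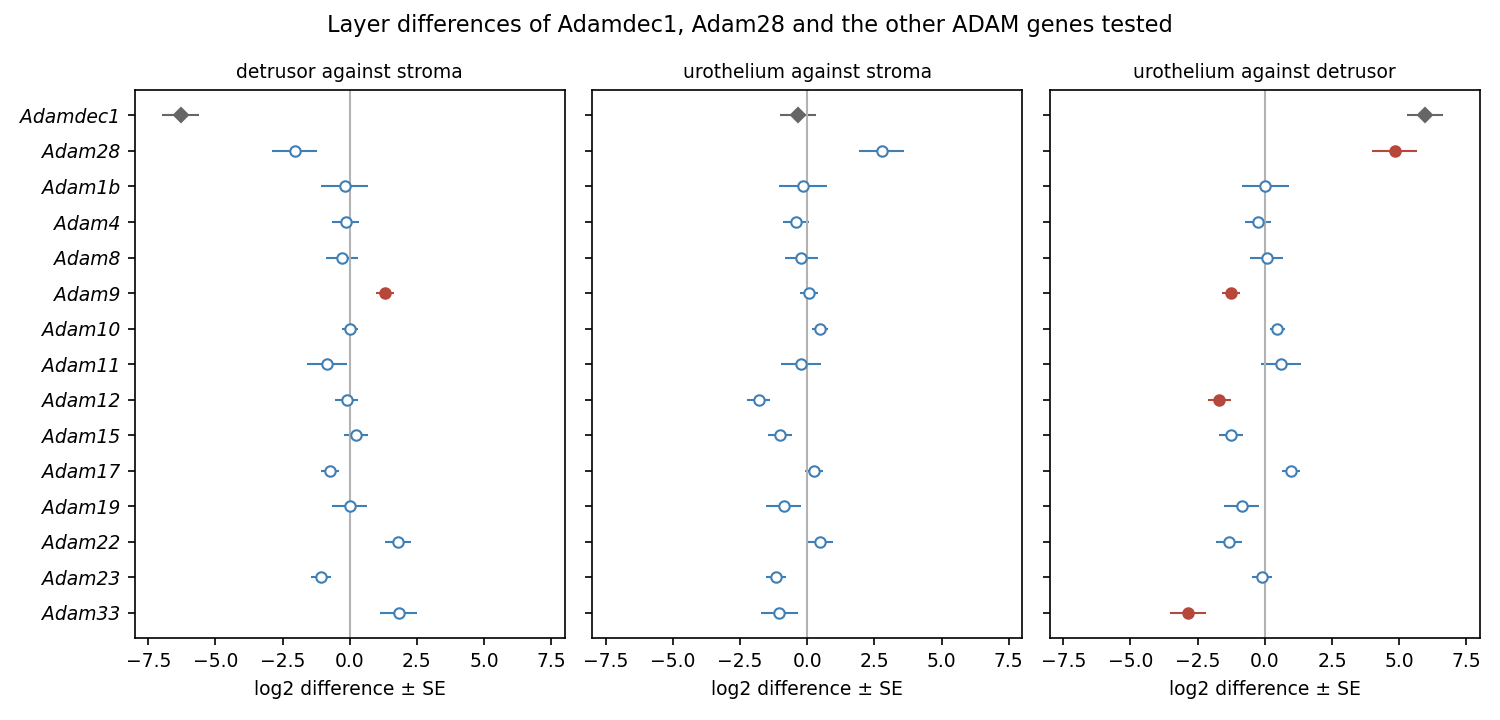
Log2 differences between layers with their standard errors for Adamdec1, Adam28 (1460427_a_at) and the 13 other ADAM genes tested, in 3 comparisons of 3 arrays per layer. Filled red circles were called at an adjusted p under 0.05, open circles were not, and grey diamonds mark Adamdec1, which was not tested. Adamdec1 and Adam28 lie on the side opposite to Adam9, Adam12 and Adam33 for urothelium against detrusor.

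The genes around the pair had mixed layer patterns. Of the 10 nearest protein-coding genes on each side, 11 of 20 had a probe set of their own and 10 were tested. Of the 10, 1 was called lower and 0 higher in detrusor than in stroma, beside 2.72% and 3.12% of all genes. In urothelium against detrusor 1 was called higher and 2 lower, beside 8.37% and 8.05% of all genes, counts too small to be told from those shares. Their median differences were -0.10 for detrusor against stroma and -0.15 for urothelium against detrusor, beside -0.16 and -0.01 over all genes. Urothelium against stroma gave 0 called, with 1 higher and 2 lower at an unadjusted limma p under 0.05, beside 8.27% and 10.7% of all genes.

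The closest tested neighbours lay on either side with values unlike those of the pair. Stc1, the gene of the hormone stanniocalcin 1 next to Adam28, had log2 levels of 10.3 to 10.6 in detrusor, 8.05 to 11.6 in stroma and 7.68 to 10.1 in urothelium. Its differences were 0.43 ± 0.84 for detrusor against stroma and -1.41 ± 0.84 for urothelium against detrusor, neither called in limma (adjusted p = 0.795 and 0.300). Nefm and Nefl, neurofilament genes beyond Adam7 on the Adamdec1 side, were lower in urothelium than in detrusor, by -2.54 ± 0.57 (adjusted p = 0.0119) and -2.19 ± 0.67 (adjusted p = 0.0467). The Nefm call was lost without detrusor 1 (-2.17, adjusted p = 0.0581). The Nefl call was lost without detrusor 1, 2 or 3, stroma 2 or urothelium 2 or 3 (-2.57 to -1.54, adjusted p from 0.0516 to 0.174), without stroma 3 and urothelium 3 (-2.18, adjusted p = 0.0939), and in the fits with day, without the filter, with every probe set or with the highest pseudocount.

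Cdca2, a gene of mitotic chromatin further along on the Adamdec1 side, was the neighbour called with the signs of Adamdec1 in both detrusor comparisons. Its log2 levels were 7.80 to 8.56 in detrusor, 9.86 to 11.9 in stroma and 10.5 to 11.4 in urothelium, so detrusor did not overlap the others. It was lower in detrusor than in stroma (-2.67 ± 0.53, limma adjusted p = 0.0192) and higher in urothelium than in detrusor (2.70 ± 0.53, adjusted p = 0.00627). The first call was lost without detrusor 2 (-2.42), detrusor 3 (-2.79) or stroma 3 (-2.18), with adjusted p of 0.0545 to 0.0748, and without stroma 3 and urothelium 3 (adjusted p = 0.0658). Its 1 other probe set gave smaller differences of the same signs, -1.11 and 0.64. Between Cdca2 and the pair lay, among the tested genes, Kctd9 and Dock5 as well as the neurofilament genes, and neither Kctd9 nor Dock5 was called. Kctd9 (-0.50 and 0.56) and Slc25a37 (-0.49 and 1.05) had the same signs as Cdca2 in detrusor against stroma and urothelium against detrusor, without a call.

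**Figure D4:**
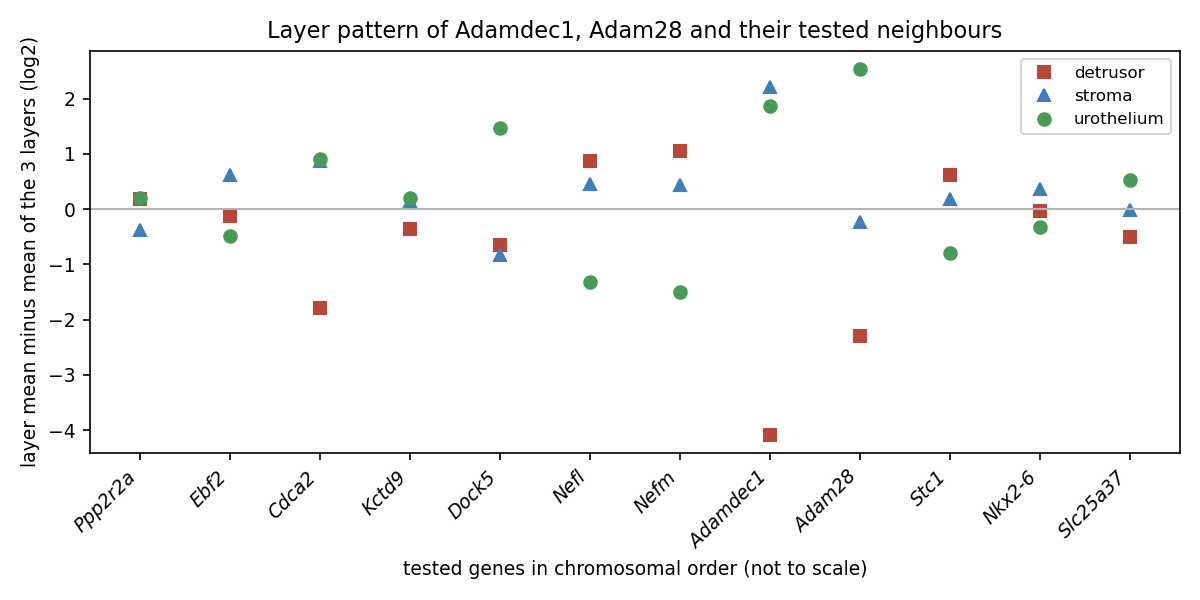
Layer means minus the mean of the 3 layers, in log2 units, for Adamdec1, Adam28 and the 10 tested neighbours in chromosomal order (3 arrays per layer; spacing not to scale, untested genes left out). The low detrusor and high stroma and urothelium means of Adamdec1 are shared in direction by Cdca2 and, at a smaller size, by Kctd9 and Slc25a37 for detrusor. Nefl, Nefm, Stc1, Ebf2 and Nkx2-6 have their lowest mean in urothelium.

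Among reported substrates, activators, inhibitors and integrin partners of the 2 proteases, all 13 listed genes were on the array and 10 were tested. In detrusor against stroma 1 was called lower and 0 higher, beside 2.72% and 3.12% of all genes. In urothelium against detrusor again 1 was called lower and 0 higher, beside 8.05% and 8.37%, a count near the share over all genes. The list medians were -0.37 and -0.39, beside -0.16 and -0.01 over all genes. In urothelium against stroma 0 were called and 3 had an unadjusted limma p under 0.05, all lower, beside 10.7% of all genes, with a list median of -0.73 beside -0.12. The untested members were Fcer2a, Selplg and Itgb7, genes of leukocyte surface proteins whose probe sets were dim.

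Both called partners were integrin subunits to which ADAM28 is reported to bind. Itga4, the alpha 4 subunit, had log2 levels of 8.49 to 9.67 in detrusor, 10.9 to 12.0 in stroma and 8.75 to 10.1 in urothelium, so stroma stood above both other layers. It was lower in detrusor than in stroma (-2.65 ± 0.50, limma adjusted p = 0.0168), a call lost without detrusor 2 (-2.51, adjusted p = 0.0658) or detrusor 3 (-2.42, adjusted p = 0.0840). Itga9, the alpha 9 subunit, had levels of 12.3 to 13.6 in detrusor, 10.2 to 11.1 in stroma and 8.78 to 12.2 in urothelium, with the highest urothelial value near the detrusor range. It was lower in urothelium than in detrusor (-2.54 ± 0.71, adjusted p = 0.0335), a call lost without detrusor 1, detrusor 3, urothelium 1 or urothelium 2 (-2.38, -2.30, -2.68 and -1.63, adjusted p up to 0.126). Itgb1, the beta 1 partner of both, gave 0.96 ± 0.31 for detrusor against stroma and was not called (adjusted p = 0.0997).

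The ADAM28 substrates tested were not called in any layer comparison. Igfbp3, a carrier of insulin-like growth factors, had levels of 12.4 to 13.3 in detrusor, 12.9 to 14.1 in stroma and 12.7 to 13.2 in urothelium. Ccn2, the gene of CTGF, overlapped across all layers at 11.8 to 14.4 in detrusor, 13.5 to 14.1 in stroma and 12.5 to 14.3 in urothelium. Vwf, the gene of von Willebrand factor, had levels of 8.45 to 11.3 in detrusor, 7.21 to 11.5 in stroma and 6.12 to 7.95 in urothelium, so urothelium lay under detrusor and overlapped stroma. Its differences were the widest of these substrates, -2.78 ± 1.05 for urothelium against stroma (limma adjusted p = 0.180) and -2.95 ± 1.05 for urothelium against detrusor (adjusted p = 0.0824). Vwf is an endothelial gene, the endothelial sums given above were also lower in urothelium than in stroma, and the part of that cell type was not tested. Timp3, a metalloprotease inhibitor, gave -1.42 ± 0.42 for urothelium against stroma (limma adjusted p = 0.104). Egf, whose precursor ADAMDEC1 is reported to process, gave 1.07 ± 0.53 for urothelium against detrusor (adjusted p = 0.207).

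Genes with the pattern most like each member were found by the root mean square difference between log2 levels over the 9 arrays, after each gene was centred on its own mean. For Adamdec1 these were Smim22 (0.94 log2 units), the simple epithelial keratin gene Krt8 (1.13), Bmp5 (1.17), Wnt4 (1.20), the tricellular junction gene Marveld2 (1.20) and the tetraspanin gene Tspan8 (1.20), against a median of 3.03 over all genes. A low detrusor mean in these genes follows from how they were picked, on the same 9 arrays. The 6 had detrusor means of 6.14 to 10.74 and stroma means of 11.42 to 15.15. Their urothelium means were 12.80 to 16.30, and each was higher in urothelium than in stroma. Adamdec1 (15.23 in stroma and 14.88 in urothelium) was not. Bmp5, with 13.87 and 14.11, came nearest to that balance. Adam28 ranked 228 by this measure, at 1.99. Without stroma 1, the array brightest for Adamdec1, 0 of these 6 genes were among its closest 6, and 2 were without detrusor 2 or stroma 2.

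For Adam28 the closest patterns were those of Lypd3 (0.34), Oit1 (0.35), Ttc22 (0.35), Fer1l4 (0.36), Ociad2 (0.37) and the epithelial serpin gene Serpinb5 (0.39), against a median of 2.28 over all genes. Each of the 6 had its highest mean in urothelium, at 10.17 to 13.71, and its lowest in detrusor, at 5.88 to 8.65. In stroma each was lowest in stroma 2 and highest in stroma 3, as Adam28 was. These shared orders follow from how the 6 were picked, on the same 9 arrays, and are no separate result. Adamdec1 ranked 2357 by likeness to Adam28. This list rests on the scale, since 0 of the 6 were kept with the pseudocount of 8.13 and 2 with that of 232.9, and 2 were kept without detrusor 1, detrusor 2, stroma 1 or stroma 2.

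**Figure D5:**
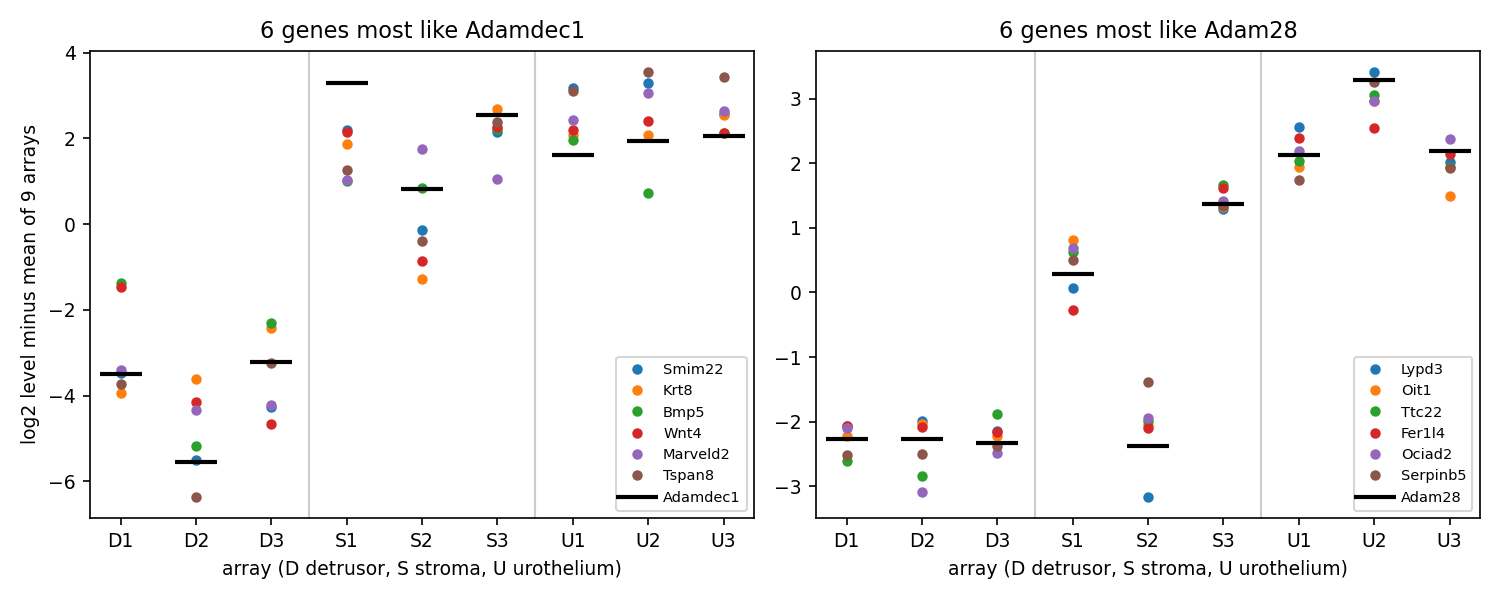
Log2 level minus the mean of the 9 arrays for Adamdec1 and its 6 most similar genes (left) and Adam28 and its 6 (right), with black bars for the member gene and coloured points for the others. In stroma 1, Adamdec1 stands above all 6 of its closest genes, whereas Adam28 lies within the spread of its 6 in stroma 1 and stroma 3.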

How the data were processed

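The deposited table holds 1 linear intensity per probe set and array, which the authors made with GCOS, software for Affymetrix arrays, per the submitters' processing notes. Which version, algorithm and target level were used is not given in the sources used here. Samples passed through 2 rounds of amplification, per the labels' protocols. Trimmed of 2% of probe sets at either end, the mean was 1500.01 on every array, so arrays had been scaled to 1 level, which was kept. Array medians ran from 133.3 to 388.5 intensity units. There are no detection calls, so a dim value cannot be called absent, and the number of arrays limits the precision.

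Symbols came from the platform annotation, looked up by gene identifier in a table of assembly GRCm38.p6 (34741 of 34945 single-symbol probe sets matched), which also gave the order of neighbouring genes. Values were taken as log2(intensity + 39.31), the 20th percentile of all values. A probe set was kept where it reached its array's median on at least 3 arrays, with the highest mean probe set for each of 13064 genes. Layers were fitted with limma 3.58.1 in R 4.3.3 over all 9 arrays, and day with layer as a covariate. The labels do not tie samples to animals, so p-values reflect the spread among these samples alone, and that spread may be technical. The fit was tested on simulated data for detrusor against stroma. It called 8%, 60%, 90% and 94% of genes changed by 1, 2, 3 and 4 log2 units, and 0.062% of unchanged genes. Many smaller differences would thus be missed.

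The members, lists and tests were chosen with earlier results of these data known. Named genes are the members, the 6 most like each, and for each list the members called in any comparison. Others named were picked after their values were seen: Adam10, Adam17 and Adam7, Stc1, Kctd9, Slc25a37 and Dock5, and Itgb1, Igfbp3, Ccn2, Vwf, Timp3 and Egf, with the untested partners. So were Adam8, Adam11 and Adam1b, the neighbours Ebf2 and Nkx2-6, and Ptprc among the cell type markers. Alternatives were quantile normalization, median centring, pseudocounts of 8.13 and 232.9, no filter, every probe set, array weights, day as a covariate and leaving out arrays.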

Additional observations from a re-analysis of the deposited data

How the results depend on the processing

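Both detrusor differences of Adamdec1 kept their side, and their size within the spread between arrays, under every alternative run. This is no support for them, since the gene was chosen on these values and its detrusor arrays overlapped no others. Adam28 by 1460427_a_at was called higher in urothelium than in detrusor under all of these alternatives. Leaving out 1 array at a time gave -3.12 to -1.25 for Adam28 in detrusor against stroma, 1.71 to 3.58 in urothelium against stroma, and -0.86 to 0.60 for Adamdec1 by day. With the second probe set of Adam28, chosen as an alternative after seeing the data, urothelium against detrusor was 0.50, urothelium against stroma -0.62 and the day difference 0.059. The causes were not tested. Of 180 refits of called list genes, 134 kept the call, 46 lost it and 0 turned sign.

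Counts over all genes moved more. Leaving out 1 array gave 105 to 851 genes for detrusor against stroma (763 with all arrays), 1172 to 2435 for urothelium against detrusor (2145), 2 to 4 by day (2) and 0 to 528 for urothelium against stroma (30). That last comparison had 0 calls in limma without detrusor 1, stroma 1 or urothelium 2, where 2259, 2179 and 1588 genes had an unadjusted p under 0.05. It had 223 with median centring (192 higher, 31 lower, against 8 and 22), 93 with quantile normalization (42 higher, 51 lower), 13 and 304 with pseudocounts of 8.13 and 232.9, 10 without the filter, 10 with day, 11 with array weights and 440 without stroma 3 and urothelium 3. Array weights gave 3785 for urothelium against detrusor, and 428 were called for detrusor against stroma without stroma 3 and urothelium 3. Median centring moved the median difference of detrusor against stroma from -0.16 to 0.25, with 588 higher and 144 lower instead of 408 and 355. No paired analysis was possible because the labels give no replicate numbers shared between layers.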
